A study of Mus musculus with 20 samples.

Results

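The proteasome genes described here are the 49 mouse genes whose symbol starts with Psm, a letter from a to g and a number, out of 55487 genes counted in the study. The symbol pattern fitted 56 genes; 5 pseudogenes were set aside, as were Psmb8 and Psmb9, which are given below only for comparison. Of the 49, 8 belong to the alpha ring of the core particle, 9 to its beta ring, 6 to the ATPases of the regulatory particle's base, 11 to its other subunits, 3 and 4 to the chaperones that assemble the regulatory particle and the core, and 5 are activators or the inhibitor Psmf1. The last 3 carry a fitting symbol without being subunits: Psmc3ip works in meiotic recombination, Psme3ip1 binds the activator Psme3, and Psme2b is a copy of Psme2. Psme3ip1 is listed under an older symbol in the annotation used.

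The proteasome degrades proteins tagged with ubiquitin. Its barrel-shaped core has outer alpha rings, which gate the entrance, and inner beta rings, of which Psmb5, Psmb6 and Psmb7 carry the proteolytic sites; a regulatory particle on top recognises, deubiquitinates and unfolds the substrate. In cells exposed to interferon, Psmb8, Psmb9 and Psmb10 replace those catalytic subunits and the activator made of Psme1 and Psme2 binds the core; in brain this immunoproteasome is best known from microglia. When proteasome activity falls, the transcription factor Nfe2l1 is known to raise the subunit genes together through antioxidant response elements in their promoters.

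All animals were NMRI mice whose olfactory bulbs had been removed, an operation that the study uses to model the sporadic form of Alzheimer's disease. From day 14 after surgery they received a recombinant chaperone protein through the nose once daily for 21 days, either 4 µg of human HSP70, a heat shock protein, or 6.4 µg of YB-1, an RNA- and DNA-binding cold shock protein. Poly(A) RNA of the hippocampus and cortex was sequenced in 5 libraries for each tissue and protein, 20 in all, and ages are not given in the labels. Untreated, vehicle-treated or sham-operated mice were not analysed here, so each treatment value compares YB-1 with HSP70 and cannot say which of them moved. The labels do not state that each library came from a different mouse, so p-values measure the spread between these libraries.

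Libraries held 6414215 to 15148078 reads assigned to genes. In cortex, depth and treatment cannot be told apart, since the HSP70 libraries had 12283392 to 15148078 reads and the YB-1 libraries 6414215 to 10763465 reads. Markers of oligodendrocytes and of the cortical layers, summed over 6 genes each, separated the tissues: they were 3673 to 6826 CPM, that is counts scaled to a common library total, and 116 to 177 CPM in hippocampus, and 1359 to 2499 CPM and 386 to 487 CPM in cortex, although 1 of the 6 layer markers, Fezf2, was higher in hippocampus under HSP70 (log2 fold change 0.65, against 0.42 under YB-1). Cortical YB-1 replicate 4 stood apart with 591 CPM of 4 summed striatal markers, where the cortical HSP70 libraries had 139 to 260. Bc1, a short non-coding RNA of neurons, accounted for 3.92% to 20.8% of each library and is returned to below. These are bulk tissues, in which fewer cells of a type and less RNA per cell cannot be told apart.

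Levels were compared between genes as CPM per kilobase of coding transcript, averaged over the 4 group means. Psmc5, an ATPase of the base, was highest at 302 CPM per kilobase, followed by the beta subunits Psmb6 at 272 and Psmb4 at 244 and the ATPase Psmc3 at 203. The group means of Psmc5 (277 to 321) and Psmb6 (243 to 309.7) overlapped, so their order was not separated by the spread, and with lengths taken from all annotated exons Psmb4 stood above Psmb6. Levels within each ring, whose subunits the particle holds in equal number, differed many-fold. In the alpha ring they ran from 18.2 CPM per kilobase for Psma4 to 147 for Psma6 among the 7 somatic subunits, and in the beta ring from 60.3 for Psmb2 to 272 for Psmb6 with the thymic Psmb11 left aside.

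Psmc6 stood apart from the other ATPases. Its level of 4.80 CPM per kilobase compares with 67.5 for Psmc2, the next lowest of the 6, and its group means ran from 4.40 to 5.29. Only 1 of the 2185 stretches of 50 bases in its coding transcripts is shared with another annotated gene (GENCODE M21). Whether its reads were lost at another step of the counting cannot be told from the count tables, so this level may not be that of the transcript. Another 2 members are tissue-restricted. Psma8, known from testis, and Psmb11, known from thymus, averaged 0.199 and 0.178 CPM per kilobase, and Psma8 had 60 reads over all 20 libraries. The activator Psme4 was at 1.08, whereas Psme1 at 159 and Psme2 at 97.7 ranked among the more abundant members and Psme3, the activator of nuclear proteasomes, was at 50.7.

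**Figure D1:**
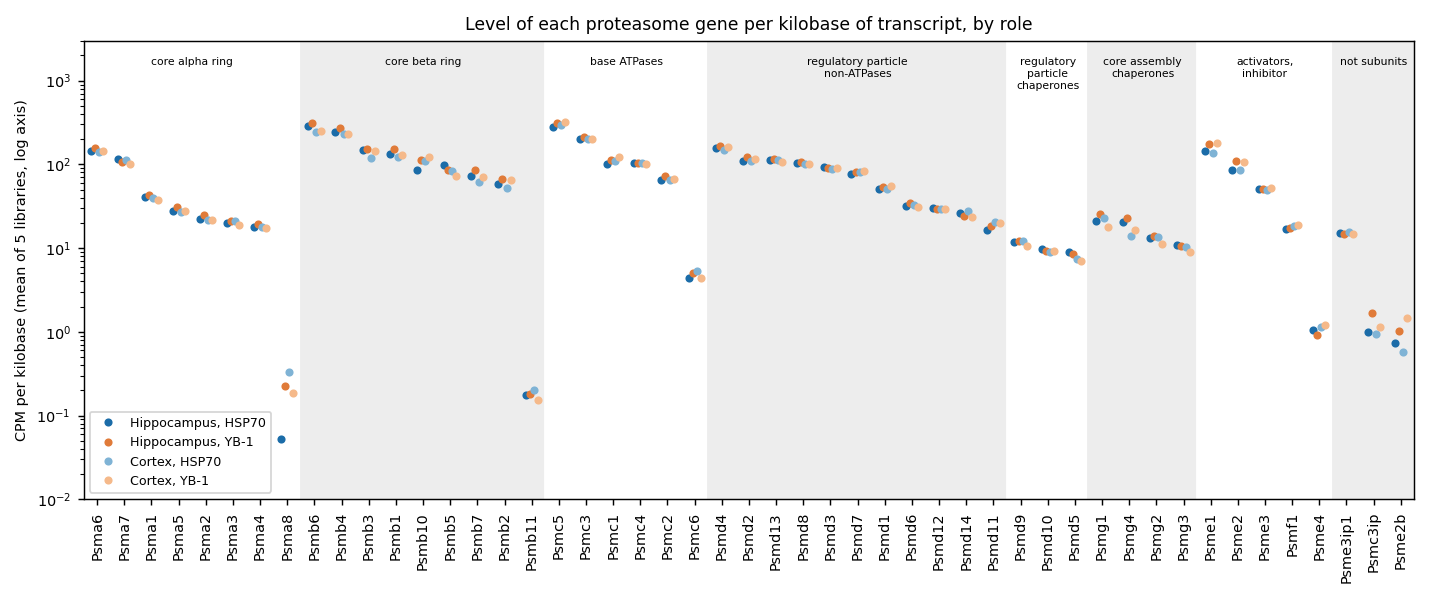
Mean level of each of the 49 genes in the 4 groups (5 libraries each), in CPM per kilobase of coding transcript on a log axis, ordered by level within each role. Genes of 1 ring differ many-fold, and Psmc6 (4.80) lies far below the other base ATPases.

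For some members, copies limit what the counts mean. Of the 50-base stretches of Psma5, 55.4% occur in another annotated gene, and the shares for Psme2, Psmb5 and Psmb3 were 54.9%, 54.1% and 55.8%; for Psme2 the other gene was Psme2b, itself a member at 0.948 CPM per kilobase. How reads that fit several places were counted is not given in the sources used here. In 23 of the 49 members no such stretch was shared.

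Promoters of 3 members, among them the catalytic Psmb5 and Psmb6, are shown because they carry the letters of the element named above near the start. The 100 bases before the RefSeq start of Psmb5 (chr14:54617996-54618095, minus strand, GRCm38.p6), Psmb6 (chr11:70525257-70525356, plus strand) and Psmd9 (chr5:123228090-123228189, plus strand), a regulatory particle chaperone, are the only ones of the 41 members with a window in which the core TGACNNNGC of the antioxidant response element lies that near the start. They read, 5′ to 3′ on the gene's strand with the element in capitals:
Psmb5: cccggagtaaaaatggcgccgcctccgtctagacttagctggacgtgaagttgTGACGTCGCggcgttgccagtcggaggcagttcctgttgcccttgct
Psmb6: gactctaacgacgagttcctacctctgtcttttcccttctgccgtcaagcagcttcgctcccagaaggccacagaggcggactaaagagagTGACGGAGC
Psmd9: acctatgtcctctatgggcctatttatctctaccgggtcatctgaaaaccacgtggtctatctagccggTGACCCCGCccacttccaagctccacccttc
In windows from 250 bases before to 50 after the start, on both strands, TGACNNNGC occurred in 6 of the 41 members with a window (14.6%) and in 14.0% of 27025 genes. The CCAAT box, bound by NF-Y, occurred in 15 members (36.6%) against 41.1% of genes, and GAAANNGAA, the core of the interferon-stimulated response element, in 7 members (17.1%) against 9.76%. The 7 included Psme1 but not Psmb10 or Psme2. Each motif was searched on its own, so matches of different motifs may overlap. A match describes letters only; whether the element is bound was not measured.

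In the hippocampus, the treatment comparison gave no called member. Of the 46 members that passed the filter on low counts, 0 had an adjusted p under 0.05 (edgeR's quasi-likelihood test with Benjamini-Hochberg adjustment), as had 0 of the 13723 genes tested (0.0%); 1 member, against 2.4% of genes, had an unadjusted p under 0.05. The members' log2 fold changes, YB-1 over HSP70, were above 0 for 36 and below 0 for 10, with a median of 0.095, beside 49.3% of all genes above 0 and a median of -0.003. That direction rested on 1 library. Without YB-1 replicate 4, 19 of 46 were above 0 and the median was -0.009. This library had the highest level of its tissue for 29 of the 47 members tested over all groups, and also the highest Bc1 share (20.8%) and the most reads outside genes (4.46%) of the 10 hippocampal libraries; their part in the result was not tested.

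By role, all 6 base ATPases, 6 of 7 alpha subunits and 7 of 8 beta subunits had log2 fold changes above 0 in hippocampus, with medians of 0.161, 0.103 and 0.172, and none of these 21 genes passed an unadjusted p of 0.05. Of the 11 other regulatory particle subunits, 8 were above 0, with a median of 0.055. The 3 members with the smallest p were the interferon-inducible ones. Psme2 (ENSMUSG00000079197) was at 74.7, 55.7, 63.4, 76.1 and 108 CPM in the HSP70 libraries and at 88.8, 116, 80.3, 102 and 99.95 CPM in the YB-1 libraries. Each YB-1 library lay above 4 of the 5 HSP70 libraries, and HSP70 replicate 5 kept the groups from separating. The log2 fold change was 0.37 ± 0.17 (SE; adjusted p = 1.0 by edgeR).

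Psmb10 (ENSMUSG00000031897) was at 126, 81.4, 94.2, 125 and 136 CPM with HSP70 and at 138, 169.8, 91.2, 181 and 151 CPM with YB-1. All YB-1 libraries but replicate 3 exceeded the highest HSP70 library, and the log2 fold change was 0.38 ± 0.19 (SE; adjusted p = 1.0 by edgeR). Psme1 (ENSMUSG00000022216), the partner of Psme2 in the activator ring, was at 109.5, 88.2, 109.5, 146 and 146 CPM with HSP70 and at 119.9, 184, 112, 145 and 180.4 CPM with YB-1. Only YB-1 replicates 2 and 5 lay above the HSP70 range, and the log2 fold change was 0.31 ± 0.18 (SE; adjusted p = 1.0 by edgeR). With the log2 share of Bc1 as a covariate, an alternative chosen after seeing the data, the 3 values were 0.39, 0.38 and 0.32. In the 7 hippocampal libraries with Bc1 under 10% of reads, Psme2 differed by 0.41, and 25 of 47 members were above 0. In these libraries Psmb10 was at 81.4 to 126 CPM with HSP70 and at 91.2 to 151 CPM with YB-1. Psme1 was at 88.2 to 146 and 112 to 180.4 CPM, so both overlapped.

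The catalytic genes Psmb5, Psmb6 and Psmb7 had log2 fold changes between -0.20 and 0.23. Psmb5 (ENSMUSG00000022193), the chymotrypsin-like subunit, was at 50.2, 52.5, 65.2, 111 and 98.1 CPM in hippocampus with HSP70 and at 41.4, 84.2, 44.8, 97.2 and 59.7 CPM with YB-1. The groups overlapped over nearly their whole range, and the log2 fold change of -0.20 ± 0.28 (SE; adjusted p = 1.0 by edgeR) had the smallest p among the lower members. Psma7 at -0.11 ± 0.15 and the chaperone Psmd5 at -0.09 ± 0.14 followed, neither past an unadjusted p of 0.05. Psmb6 (ENSMUSG00000018286), the caspase-like subunit, differed by 0.13 ± 0.22 and turned to -0.01 without YB-1 replicate 4. Psmb7 (ENSMUSG00000026750), the trypsin-like subunit, differed by 0.23 ± 0.18. The difference between the inducible and the constitutive genes was not tested.

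Psmb8 and Psmb9, the inducible counterparts of Psmb5 and Psmb6 that the selection left out, were at 77.6 ± 20.1 and 64.2 ± 19.6 CPM with HSP70 and at 117 ± 41.0 and 101 ± 36.2 CPM with YB-1 in hippocampus (SD, n = 5). Their log2 fold changes of 0.60 ± 0.25 and 0.66 ± 0.27 had unadjusted p under 0.05 and adjusted p of 1.0 by edgeR. The list for the immunoproteasome and class I presentation holds 17 genes, among them these 2 and 3 members. Of the 17, 13 were above 0 with a median of 0.393, and 7 had an unadjusted p under 0.05. Among all genes 49.3% were above 0 and 2.4% had such a p. The list was chosen with earlier results of these data known, so its counts are a description and no test. The peptide transporter Tap2 (0.63 ± 0.14) and the interferon regulatory factor Irf1 (0.80 ± 0.26) had the smallest p of its non-members, with adjusted p of 1.0 by edgeR. The 6 microglial markers were all above 0 in this comparison, with a median of 0.289, and their summed level was 699 to 1292 CPM with HSP70 and 742 to 1553 CPM with YB-1; none was at 0 in any library. The 5 endothelial markers were also all above 0, with a median of 0.249 and sums of 133 to 170 CPM with HSP70 and 171 to 198 CPM with YB-1. The 6 markers of dentate and CA neurons were above 0 as well (median 0.250, sums of 322 to 405 and 321 to 533 CPM), and all 6 of meningeal fibroblasts were below 0 (median -0.414, sums of 961 to 1994 and 620 to 1232 CPM). All 6 oligodendrocyte markers (median -0.187) and the 4 tested red blood cell markers (median -0.473) were also below 0. The part of these cell types in the result was not tested.

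**Figure D2:**
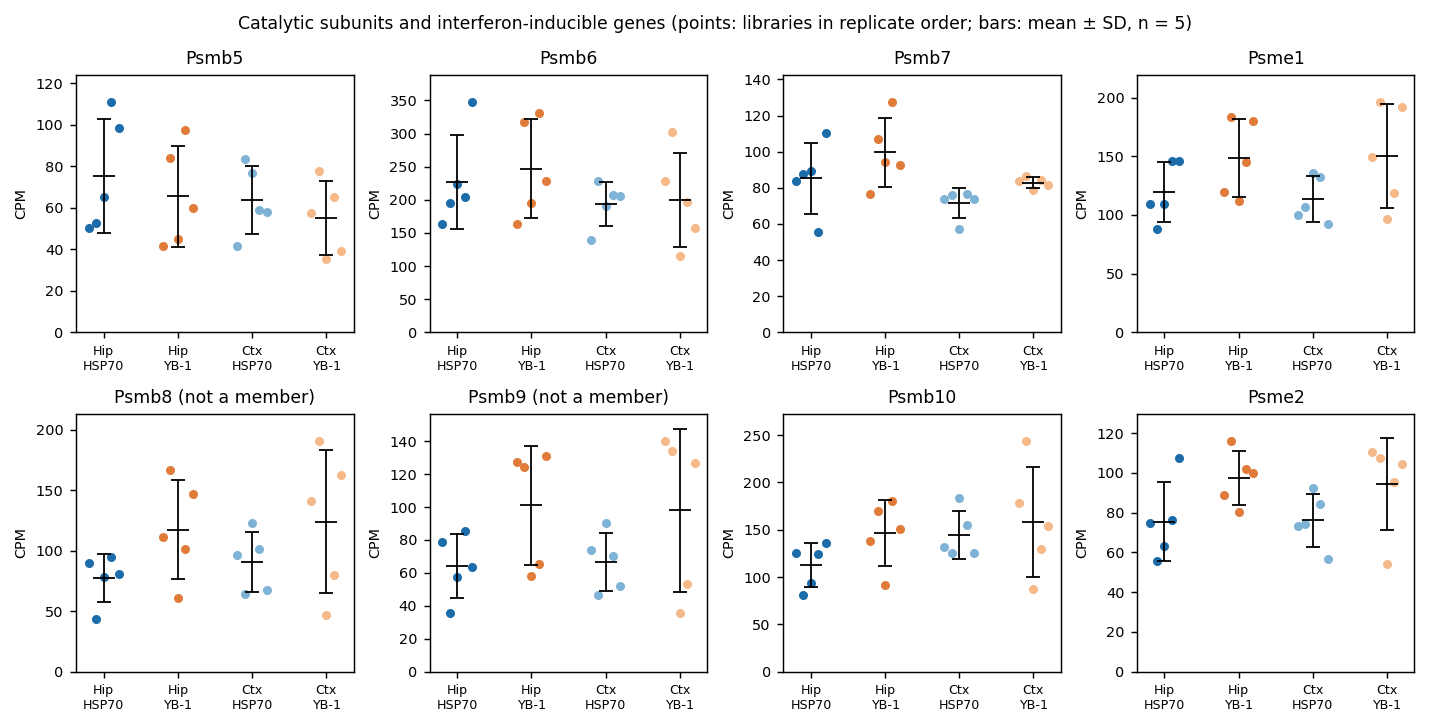
CPM of the catalytic genes, their interferon-inducible counterparts and the activator genes Psme1 and Psme2 in each library, with mean ± SD of 5. In hippocampus Psmb5 overlaps between treatments over nearly its whole range, and 4 of 5 YB-1 libraries lie above every HSP70 library for Psmb10. In cortex the treatment groups of Psmb10 overlap, and those of the constitutive Psmb7 do not.

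Among other genes of the pathway, the 17 of the Nfe2l1 axis had 13 log2 fold changes above 0 in hippocampus, with a median of 0.072, and 0 had an unadjusted p under 0.05. Mafg, a partner of Nfe2l1 at the antioxidant response element, and the NF-Y subunit Nfyb had its smallest p, at -0.21 ± 0.14 and -0.33 ± 0.26. Of 20 proteasome-associated and assembly genes 11 were above 0 and 9 below, with a median of 0.010; the core chaperone Pomp was at 0.25 ± 0.16. Of 10 genes for ubiquitin and its first enzymes 6 were above 0, with the ubiquitin fusion gene Rps27a at 0.28 ± 0.20. None of the genes of these 3 lists passed an unadjusted p of 0.05.

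In the cortex, 27 of 46 members had log2 fold changes above 0 and 19 below, with a median of 0.032, beside 50.9% of all genes above 0. Here too single libraries turned the direction: 20 of 47 were above 0 without YB-1 replicate 4 (median -0.026), 23 of 47 without YB-1 replicate 2 (-0.002) and 21 of 46 without HSP70 replicate 5 (-0.006). Again 0 members were called, as were 0 of 14114 genes (0.0%) by edgeR; 2 members and 5.48% of genes had an unadjusted p under 0.05. DESeq2 called 4 genes, none of them a member. Psmb2, a non-catalytic beta subunit, was at 40.8, 43.6, 45.6, 43.6 and 48.5 CPM with HSP70 and at 53.4, 59.1, 44.4, 69.0 and 53.4 CPM with YB-1. All YB-1 libraries but replicate 3 exceeded the HSP70 range, and the log2 fold change was 0.33 ± 0.14 (SE; adjusted p = 0.858 by edgeR). In hippocampus the same gene differed by 0.20 ± 0.13, and the interaction of -0.13 ± 0.18 was not called.

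Psme1 was at 99.7, 107, 136, 133 and 92.1 CPM with HSP70 in cortex and at 149, 196, 96.2, 118 and 192 CPM with YB-1. YB-1 replicates 1, 2 and 5 lay above every HSP70 library and replicates 3 and 4 within their range, giving 0.41 ± 0.19 (SE; adjusted p = 0.858 by edgeR). Psme2 differed by 0.31 ± 0.18 and Psmb10 by 0.14 ± 0.21; without YB-1 replicate 2, the highest library, Psmb10 turned to -0.08. YB-1 replicate 3 was the lowest library for Psme2 (53.9 CPM against 95.6 to 110.4 in the other 4). The same replicate was low for Psmb8 and Psmb9, at 47.1 and 35.7 CPM, where the other 4 held 79.7 to 190.4 and 53.4 to 139.8 CPM. Psmb8 and Psmb9 differed between treatments by 0.45 ± 0.34 and 0.55 ± 0.37 in cortex, neither past an unadjusted p of 0.05. Microglial markers summed to 936 to 1323 CPM with HSP70 and 1044 to 1981 CPM with YB-1, with 5 of 6 above 0 and none at 0 in any library. All 6 GABAergic markers were below 0, with a median of -0.451 and sums of 699 to 886 CPM with HSP70 and 511 to 603 CPM with YB-1. Of the 4 striatal markers 3 were above 0, with a median of 0.960 and sums of 139 to 260 and 146 to 591 CPM. The 591 CPM is that of YB-1 replicate 4, and the other YB-1 libraries had 146 to 225, inside the HSP70 range. The 3 tested choroid plexus markers (median -1.138) and the 4 tested red blood cell markers (median -0.578) were all below 0. Choroid plexus sums were low, at 9.93 to 152.5 CPM with HSP70 and 7.59 to 41.1 CPM with YB-1. The part of these cell types in the result was not tested.

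Psmb7 was the member whose cortical treatment groups did not overlap, which 0.829% of genes also showed; in hippocampus no member did, beside 0.474% of genes. It was at 73.9, 76.1, 57.2, 76.8 and 73.8 CPM with HSP70 and at 83.7, 86.7, 78.6, 84.1 and 81.5 CPM with YB-1. The gap between the groups was narrow, HSP70 replicate 3 stood low, and the log2 fold change was 0.21 ± 0.12 (SE; adjusted p = 0.858 by edgeR). Psmb5 differed by -0.22 ± 0.22 and Psmb6 by 0.04 ± 0.21. Psmb6 changed sign with the replicate block (-0.01) and without HSP70 replicate 1 (-0.06) or YB-1 replicate 1 (-0.01) or 2 (-0.16).

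Psmg1 (ENSMUSG00000022913) and Psmg2, which together form the chaperone that starts the alpha ring, had the smallest p of the members below 0 in cortex, neither under 0.05 unadjusted. Psmg1 was at 17.9, 25.6, 23.0, 21.5 and 17.6 CPM with HSP70 and at 16.5, 21.2, 14.6, 18.4 and 12.6 CPM with YB-1. The 3 YB-1 libraries with the lowest values, replicates 1, 3 and 5, lay below the HSP70 range. The log2 fold change was -0.35 ± 0.18 (SE, adjusted p = 0.858 by edgeR). These 3 are also the cortical YB-1 libraries with Bc1 under 10% of reads. Over both treatments, Psmg1 was at 12.6 to 17.9 CPM in the 4 cortical libraries with Bc1 under 10%. In the 6 with Bc1 above 10% it was at 17.6 to 25.6 CPM. Psmg2 differed by -0.31 ± 0.18, while Psmg4, another core chaperone, was at 0.21, and the deubiquitinase Psmd14 by -0.24 ± 0.20. The 5 activator and inhibitor genes were all above 0, with a median of 0.089, and 5 of 7 alpha subunits were below 0.

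**Figure D3:**
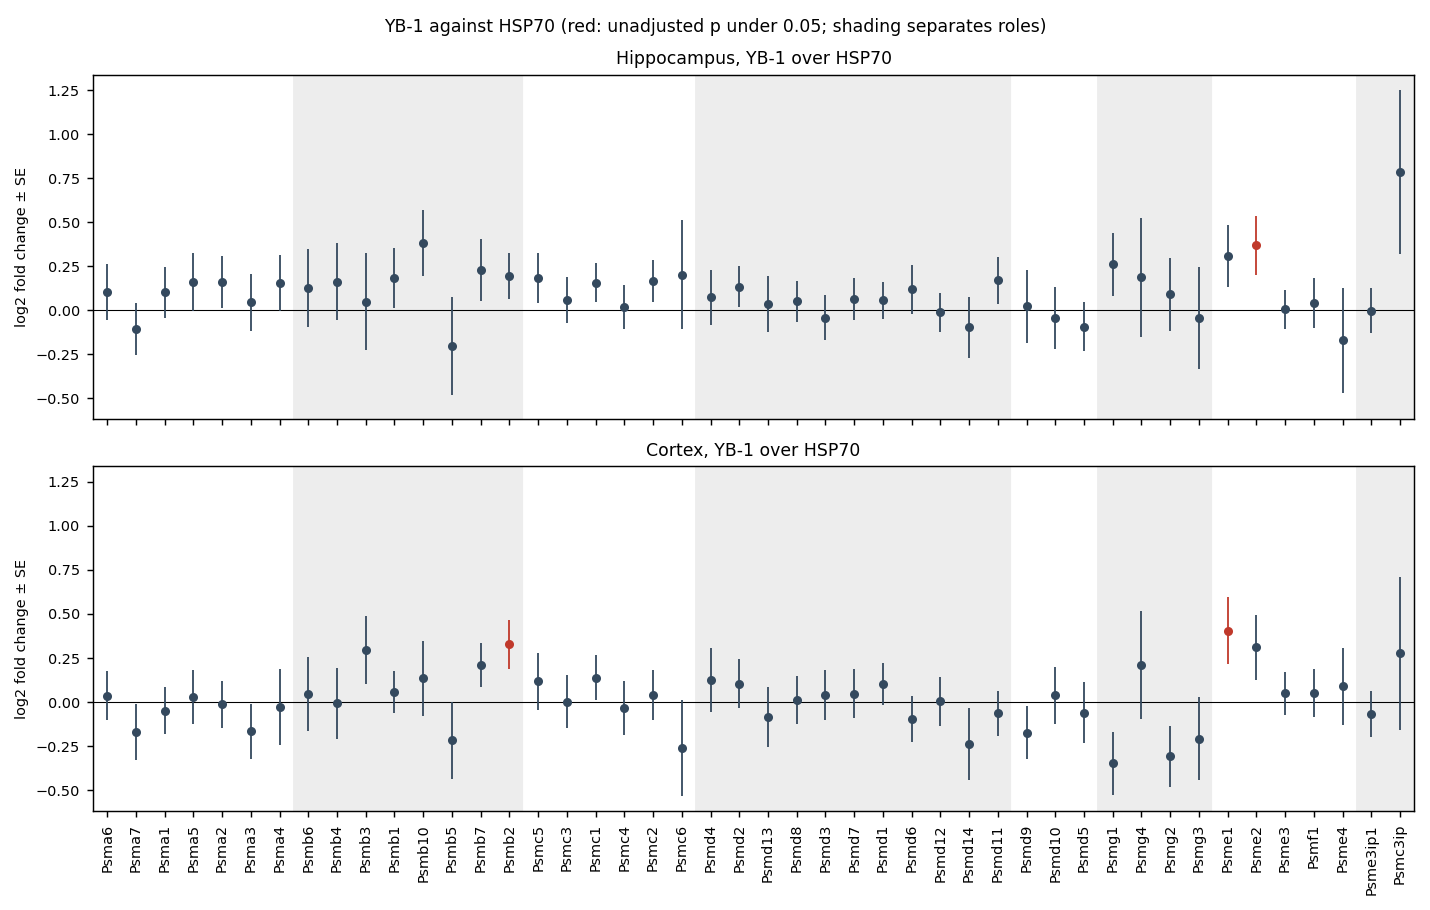
Log2 fold change, YB-1 over HSP70, with its SE for the 46 members tested in hippocampus (top) and cortex (bottom), ordered by role. No member was called in either tissue; the points with an unadjusted p under 0.05 are Psme2 in hippocampus and Psmb2 and Psme1 in cortex.

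In the cortical lists of other pathway genes, 14 of 17 immunoproteasome and class I genes were above 0 with a median of 0.257. Of these, 4 had an unadjusted p under 0.05. Among all genes 50.9% were above 0 and 5.48% had such a p, and the list was chosen with earlier results known. Tap1 (0.88 ± 0.31, adjusted p = 0.858 by edgeR) and Nlrc5, the activator of class I genes (0.75 ± 0.31), led the non-members of this list. Nfyb at -0.61 ± 0.26 was the single gene of the Nfe2l1 list past an unadjusted p of 0.05, with Maff next at 0.56 ± 0.32; 10 of 17 were above 0. The associated and assembly genes had 6 of 20 above 0 and a median of -0.074, with the phosphatase Ublcp1 at -0.57 ± 0.28 and the deubiquitinase Usp14 at -0.21 ± 0.18. Of the ubiquitin list 7 of 10 were above 0, with the neuronal hydrolase Uchl1 at -0.23 ± 0.15 and Rps27a at 0.16 ± 0.14.

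Between hippocampus and cortex, many genes were called but no member was. Under HSP70, 1259 of 14616 genes (8.61%) were called between the tissues and 0 of 47 members; 20.1% of genes and 1 member had an unadjusted p under 0.05. Under YB-1, 952 genes (6.51%) and 0 members were called, and 16.7% of genes and 1 member had an unadjusted p under 0.05. No member differed past 1.5-fold in either direction under HSP70 or YB-1, beside 17.5% and 14.6% of genes. Log2 fold changes, hippocampus over cortex, were above 0 for 27 of 47 members under HSP70 and 34 of 47 under YB-1, beside 50.7% and 50.3% of genes. These counts also rested on single libraries: under HSP70 19 of 48 were above 0 without hippocampal HSP70 replicate 5 and 23 of 48 without cortical HSP70 replicate 5, and under YB-1 24 of 48 without hippocampal YB-1 replicate 4. The median standard error of the members, 0.154 under HSP70 and 0.155 under YB-1 on the log2 scale, limits what could be seen.

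Psmd11 (ENSMUSG00000017428), a scaffold of the regulatory particle's lid, had the smallest p of the members under HSP70. With HSP70 it was at 42.1, 37.3, 36.4, 36.5 and 32.9 CPM in hippocampus and at 45.8, 44.3, 48.2, 44.2 and 47.8 CPM in cortex. The groups did not overlap, which 8.75% of genes also showed, and the log2 fold change was -0.31 ± 0.12 (SE; adjusted p = 0.0974 by edgeR); DESeq2 called it at -0.32 with an adjusted p of 0.0379, as it did 11.1% of all genes, while under YB-1 it called 0 members and 8.31% of genes. With YB-1 it was at 43.8, 34.9, 43.6, 48.1 and 37.8 CPM in hippocampus and at 43.9, 44.8, 47.0, 47.4 and 37.7 CPM in cortex, which overlap, with -0.08 ± 0.12. The interaction was 0.23 ± 0.16 (adjusted p = 1.0 by edgeR), so the tissue difference was not shown to depend on the treatment. Under HSP70, Psmd5 at 0.31 ± 0.16, Psmb7 at 0.25 ± 0.15, Psmg4 at 0.51 ± 0.35, Psmb10 at -0.36 ± 0.22 and Psmc1 at -0.11 ± 0.11 followed, none with an unadjusted p under 0.05.

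Under YB-1 the core chaperone Psmg1 had the smallest p and was the single member with one under 0.05 unadjusted. It was at 18.8, 27.2, 18.4, 29.7 and 22.7 CPM in hippocampus and at 16.5, 21.2, 14.6, 18.4 and 12.6 CPM in cortex. The hippocampal library was the higher in 5 of 5 same-numbered pairs, though the labels do not say that equal numbers mark the same mouse. Psmg1 was picked by its p and the share of all genes doing so was not taken, so this count is a description. In the fit without pairs, the log2 fold change was 0.49 ± 0.18 (SE, adjusted p = 0.105 by edgeR). All 4 core chaperones were above 0 there, with a median of 0.406, and Psmg2 was at 0.33 ± 0.19. The activator Psme4 at -0.41 ± 0.26, the inhibitor Psmf1 at -0.12 ± 0.14 and Psmc1 at -0.10 ± 0.11 had the smallest p on the lower side, none under 0.05 unadjusted. Under HSP70 Psmg1 was at 18.4, 18.6, 18.8, 17.0 and 25.1 CPM in hippocampus, with a tissue difference of -0.11 ± 0.17.

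The interaction of tissue and treatment for Psmg1, 0.61 ± 0.25, had the smallest p of the members (adjusted p = 1.0 by edgeR). It was the single member with an unadjusted p under 0.05, beside 1.55% of genes, and 0 of 14616 genes (0.0%) were called. Its value stayed between 0.51 and 0.71 when each library was left out in turn. Psmg1 was picked by its p in these same libraries, so that range is no independent test. Psmg2 at 0.39 ± 0.27 and Psmd11 followed on the higher side. On the lower side Psmb2, Psme4 at -0.26 ± 0.37 and Psmb3 at -0.25 ± 0.36 had the smallest p, none under 0.05 unadjusted. Interactions were above 0 for 34 of 47 members, beside 48.6% of genes; without hippocampal YB-1 replicate 4 the count was 20 of 48.

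**Figure D4:**
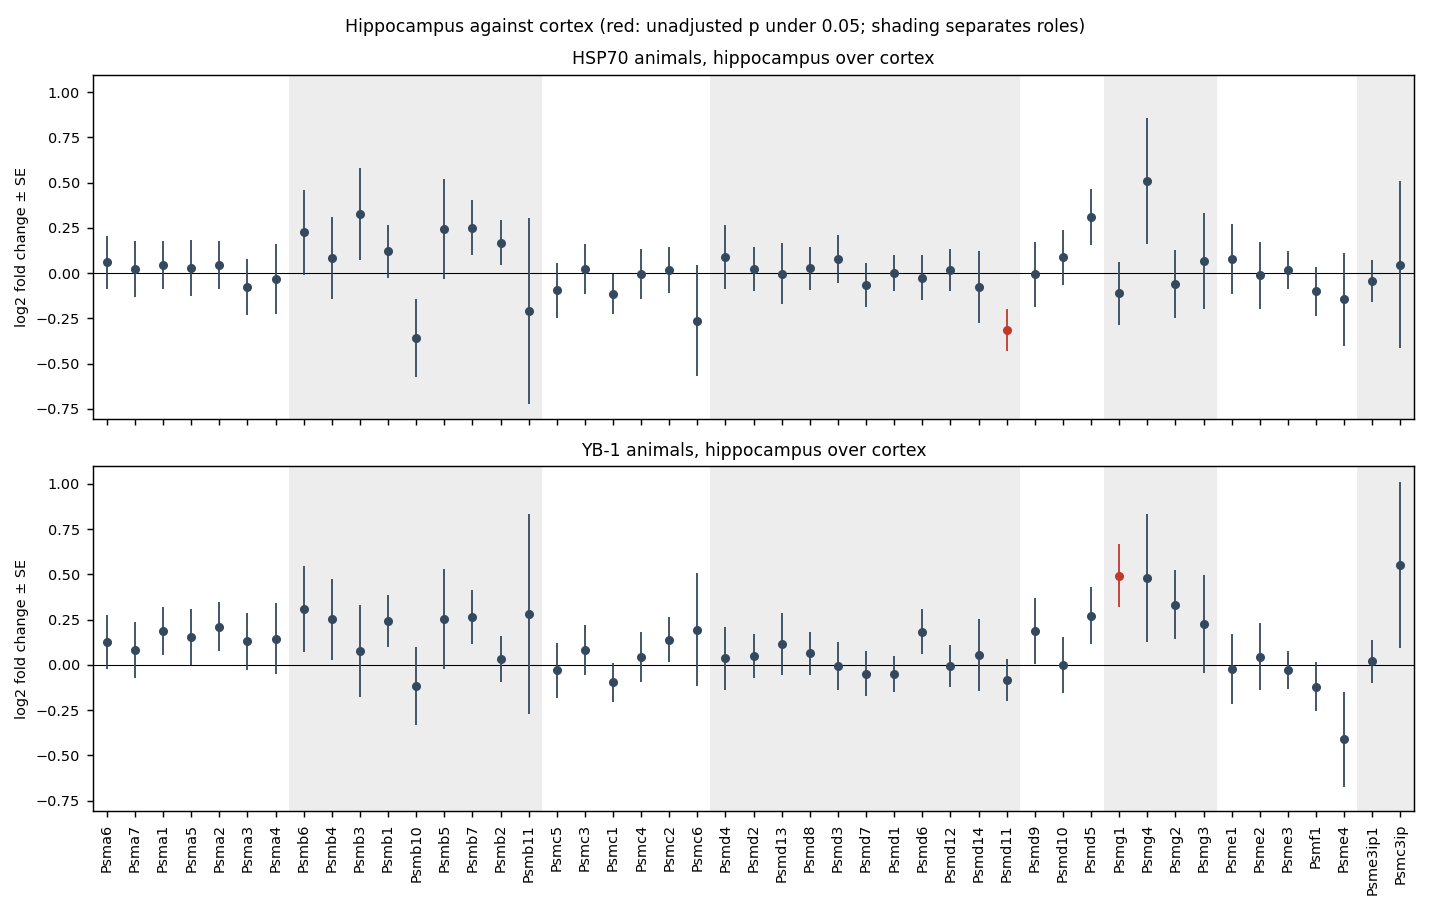
Log2 fold change, hippocampus over cortex, with its SE for 47 members in HSP70 animals (top) and YB-1 animals (bottom), ordered by role. No member was called; the points with an unadjusted p under 0.05 are Psmd11 under HSP70 (-0.31) and Psmg1 under YB-1 (0.49).

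Members differed from each other in how much they varied between libraries of 1 group. The pooled SD of log2 CPM within groups had a median of 0.237 over 47 members, against 0.281 over 7806 genes of similar level and 0.358 over all 14616. Psmd1 (ENSMUSG00000026229), the large scaffold subunit at the base, was steadiest at 0.098 and ranged from 142 to 181 CPM over the 20 libraries. Its value was lower than all but 0.137% of the 14616 genes, a share not matched for level. Psme3 at 0.119, Psmd11 at 0.133 and the ATPase Psmc1 at 0.135 came next. The beta subunits were spread widely in this measure: Psmb5 was at 0.487, Psmb3 at 0.454, Psmb6 at 0.420 and Psmb4 at 0.402, but Psmb7 at 0.245, Psmb1 at 0.223 and Psmb2 at 0.173.

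In hippocampus, levels of several members went with the share of reads on Bc1. There 3 libraries (HSP70 replicate 5 and YB-1 replicates 2 and 4) had 15.4% to 20.8% of reads on Bc1 and the other 7 had 3.92% to 9.34%. Psmb4 was at 396 to 479 CPM in the 3 and at 208 to 293 CPM in the 7. Psmb6 was at 318 to 347 CPM against 163 to 228 CPM, and the regulatory subunit Psmd13 at 189.9 to 208 CPM against 125 to 153 CPM. The core chaperone Psmg1, named above for its tissue difference and interaction, was at 25.1 to 29.7 CPM against 16.95 to 22.7 CPM. Psmd1 was at 158 to 173 CPM in the 3, inside the 142 to 180.1 CPM of the 7. In all, the 3 libraries lay above the 7 for 14 of 47 members, beside 6.06% of all genes, and below them for 0, beside 3.46%. These 14 included 6 of 9 beta subunits (Psmb1, Psmb2, Psmb3, Psmb4, Psmb6 and Psmb7) but only 1 alpha subunit, Psma6. Their coding transcripts had a median length of 1172 bases, and that of the other 33 was 1591 bases.

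In cortex 6 libraries (HSP70 replicates 2 to 5 and YB-1 replicates 2 and 4) had 13.8% to 17.9% of reads on Bc1 and 4 had 4.74% to 8.71%. Here the 6 lay above the 4 for Psmb5 and Psmd9, beside 3.13% of genes, and below them for no member, beside 2.71%. Psmb5 was at 58.0 to 83.6 CPM in the 6 and at 35.5 to 57.2 CPM in the 4. Psmb4, at 243 to 399 CPM against 173 to 272 CPM, overlapped, as did Psmb6 and Psmd13. No member lay above in both tissues (0 of 47). The libraries were divided by their Bc1 share after seeing the data, so these are descriptions without a test.

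Because the shares fall into 2 clusters in each tissue, correlations were taken only within the clusters of at least 6 libraries, for 94 relations in all. In the 7 hippocampal libraries with less Bc1, Psmb4 had a Pearson r of 0.89 with log2 Bc1 share (exact permutation p = 0.00139, adjusted p = 0.0653) and a Spearman rho of 0.929 (exact permutation p = 0.00675, adjusted p = 0.165), with r = 0.829 without the 2 libraries farthest from the median. The ATPase Psmc4 had r = 0.933 (exact permutation p = 0.000794, adjusted p = 0.0653), rho = 0.893 (exact permutation p = 0.0123, adjusted p = 0.165) and r = 0.89 without those 2. No relation passed the adjustment in either cluster. These points share the total that CPM is divided by.

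**Figure D5:**
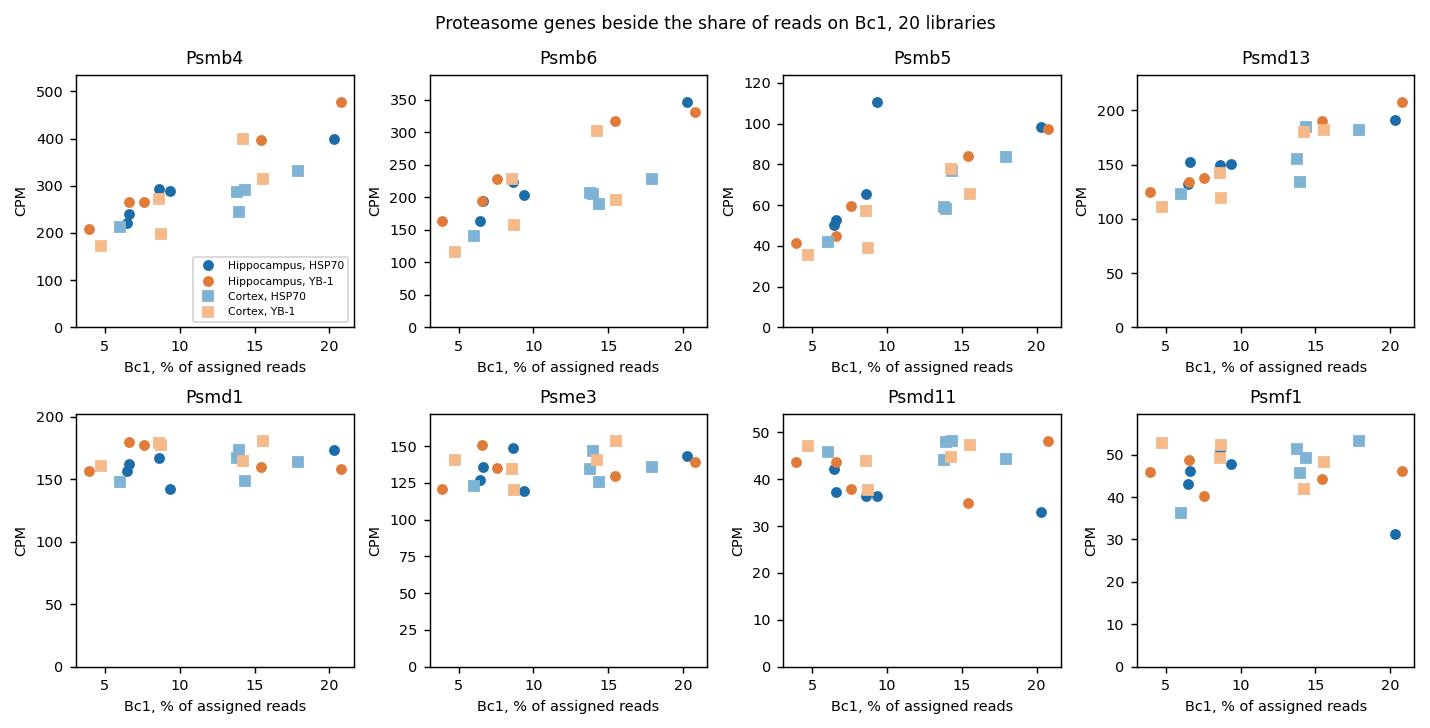
CPM of 8 members in each of the 20 libraries against the percent of assigned reads on Bc1. In hippocampus Psmb4, Psmb6 and Psmd13 are higher in the libraries with more Bc1, as are 6.06% of all genes. Psmb5 separates in cortex only, where 3.13% of all genes also do so, and Psmd1 overlaps in both tissues. Hippocampal Psmb4 is at 396 to 479 CPM in the 3 libraries above 15% and at 208 to 293 CPM in the other 7.

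When the log2 share of Bc1 entered the fit as a covariate, the tissue comparison under HSP70 called 4 of 47 members, beside 17.9% of all genes. Psmb3 (0.52 ± 0.12, adjusted p = 0.0019), Psmb6 (0.41 ± 0.12, adjusted p = 0.0171) and Psmb5 (0.48 ± 0.15, adjusted p = 0.0223) were then higher in hippocampus and Psmd11 (-0.33 ± 0.11, adjusted p = 0.0373) lower, by edgeR. Under YB-1 it called Psmg1 (0.50 ± 0.13, adjusted p = 0.0115) alone of 47, beside 9.87% of genes. Both shares of members lie below the background. Without the covariate none of the 5 was called by edgeR, and the covariate itself was measured in these libraries and chosen after seeing them. Both treatment comparisons called 0 members with it.

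Among the other genes of the pathway, only Ubqln4, a shuttle factor that brings ubiquitinated proteins to the proteasome, was called between the tissues; it is named after its values were seen. It was at 159 ± 15.0 CPM in hippocampus and 210.2 ± 36.7 CPM in cortex with HSP70 (SD, n = 5; log2 fold change -0.40 ± 0.13, adjusted p = 0.0469 by edgeR), and at 164 ± 14.0 and 225 ± 28.0 CPM with YB-1 (-0.45 ± 0.13, adjusted p = 0.0272). The other 19 tested genes of the associated and assembly list were not called, nor was any gene of the Nfe2l1, ubiquitin or class I lists.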

How the data were processed

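Gene counts were deposited by the authors, 1 table of whole-number read counts for each of the 20 libraries, and are used as deposited. Reads from a directional poly(A) library kit were single-end; the submitters' processing notes name Trimmomatic, STAR and featureCounts and the build GRCm39, without versions or settings, so how strand and multiply mapping reads were counted is not given in the sources used here. Summary entries that name no gene were left out: they held, per library, 2.45% to 4.58% of reads outside genes and 4.12% to 4.58% ambiguous ones. Symbols came from GENCODE M21 by Ensembl ID (99.5% matched) and from RefSeq synonyms for newer symbols. M21 and the RefSeq promoter windows are on GRCm38, so no gene coordinates of the files' build are given.

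CPM was scaled by TMM over all 20 libraries; log2 CPM used a prior count of 2. Comparisons used edgeR 4.0.16 in R 4.3.3 (filterByExpr, TMM, robust quasi-likelihood fit), each treatment comparison within its tissue and the tissue and interaction comparisons in 1 fit of the 4 groups, with Benjamini-Hochberg adjustment over all genes tested and a threshold of 0.05. The procedure was also run on simulated counts, drawn for each gene on its own. Apart from depth and preset changes, the simulated libraries held no shifts shared by several genes, such as those seen with Bc1. That run therefore does not bear on such shifts. Alternatives were DESeq2 1.42.0, RLE scaling, no filter, thinning to equal depth, leaving out Bc1 with mitochondrial and immunoglobulin genes, a replicate block, and each library left out. Between treatments the block joined HSP70 and YB-1 libraries of equal number, which no label pairs. Between tissues it joined hippocampal and cortical libraries of equal number within a treatment. Another 4 alternatives with Bc1 were added after seeing the data.

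Same-numbered hippocampal and cortical libraries deviated together (r from 0.198 to 0.624 with HSP70 and 0.207 to 0.394 with YB-1 over 14616 genes). The own number gave the highest r for 5 HSP70 and 4 YB-1 libraries. Between treatments r ran from -0.283 to 0.496 in hippocampus and from -0.135 to 0.167 in cortex. There the own number was best for 1 and 0 libraries, the 1 being replicate 1 (0.496). The labels do not say that equal numbers mark the same mouse, so pairing of the tissues remains an assumption. The members and gene lists were chosen with earlier results of these data known. In each comparison the text names every called member up to 6 a direction, otherwise the 3 with the smallest p, and in treatment comparisons also the catalytic and interferon-inducible genes and the 2 non-members with the smallest p of each pathway list, some of which are not reported here. Motifs were searched in RefSeq promoter windows on both strands.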

Additional observations from a re-analysis of the deposited data

Results flagged for a closer look

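In groups of 5 libraries, 9 of 128 group values of the 32 genes named under the rule and reported here had 1 library whose gap to the next was over 0.71 of the range; chance flags about 1 in 20 groups. Members flagged were Psma7 in cortex with HSP70, where replicate 3 was at 147 CPM and the others at 105 to 112, and Psmb7 in the same library, at 57.2 CPM where the others held 73.8 to 76.8. Psme2 in cortex with YB-1 was at 53.9 CPM in replicate 3 and at 95.6 to 110.4 in the others. Psmg1 in hippocampus with HSP70 was at 25.1 CPM in replicate 5 and at 16.95 to 18.75 in the others, and Psmg4 in hippocampus with YB-1 was at 18.5 CPM in replicate 4 and at 8.77 to 11.4 in the others. In that same hippocampal library Rps27a was at 278 CPM (others 131 to 163) and Uchl1 at 1130 CPM (others 791 to 881). The other flagged genes were Nlrc5 in hippocampus with HSP70 (replicate 1 at 10.7 CPM, others 4.99 to 5.86) and Pomp in cortex with YB-1 (replicate 2 at 225 CPM, others 119 to 146).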

How the results depend on the processing

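Members called stayed at 0 in both treatment comparisons and the interaction under every alternative run. Under HSP70 the tissue comparison called 1 member with DESeq2 (11.1% of all genes) and 4 with the Bc1 covariate, and under YB-1 the covariate gave 1. Without hippocampal YB-1 replicate 4, members above 0 fell to 19 of 46 in the hippocampal treatment comparison and 20 of 48 in the interaction; over all left-out libraries these counts ran from 19 to 39 and from 20 to 38. With the Bc1 covariate 21 of 47 interactions were above 0. Genes called between treatments in cortex, 0 with edgeR's main setting, were 4 with DESeq2, 9 without a filter, 1 after thinning, 14 in the 6 libraries with more Bc1, 273 with the Bc1 covariate, and 0 to 1 when a library was left out (1 without HSP70 replicate 3); the cause was not tested. The covariate raised the genes called between tissues to 2621 under HSP70 and 1443 under YB-1. Signs turned for Psmb6 in hippocampus (-0.01 without YB-1 replicate 4, the lowest of a range up to 0.33, -0.0044 in the 7 libraries with less Bc1), Psmb6 in cortex (-0.01 with the replicate block, -0.06, -0.01 and -0.16 without HSP70 replicate 1, YB-1 replicate 1 or 2, with 0.19 as the highest), Psmb5 in cortex (0.01 with the covariate, 0.05 in the 6 libraries with more Bc1) and Psmb10 in cortex (-0.08 without YB-1 replicate 2, with 0.29 as the highest). With the replicate block, 1777 and 1224 genes were called between tissues under HSP70 and YB-1 and still 0 members (smallest adjusted p 0.0951 and 0.072 by edgeR), and 34 and 25 of 46 members were above 0 between treatments in hippocampus and cortex; the block changed no other call. Leaving out Psmc3ip, Psme3ip1 and Psme2b gave 35 and 26 of 44 above 0. Low levels limit Psma8 and Psme2b, which were not tested.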

Other observations

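If same-numbered libraries come from the same mouse, hippocampal and cortical levels can be set side by side over 10 animals. Of 6 members compared in this way (Psmb5, Psmb6, Psmb7, Psmb10, Psme1 and Psme2), none passed the adjustment. Psme1 had the smallest p, with a Pearson r of 0.642 between the tissues (permutation p = 0.0477, adjusted p = 0.286) and a Spearman rho of 0.515 (permutation p = 0.135, adjusted p = 0.522). Its r was 0.493 without the 2 animals farthest from the hippocampal median and 0.534 after centring on the treatments. Within the treatments it differed, at 0.02 with HSP70 and 0.832 with YB-1 (n = 5 each).

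Members' reads made up between 0.429% and 0.559% of each library, the highest share being that of hippocampal YB-1 replicate 4. The reads of Psmb8 per read of Psmb5, not corrected for length and so a comparison of libraries only, ran from 0.825 to 1.79 in hippocampus with HSP70, from 1.05 to 2.69 with YB-1, from 0.770 to 2.32 in cortex with HSP70 and from 1.22 to 4.17 with YB-1. In the same order, Psmb9 per Psmb6 ran from 0.182 to 0.4825, 0.198 to 0.775, 0.206 to 0.528 and 0.2725 to 0.808. Psmb10 per Psmb7 ran from 0.929 to 2.26, 0.965 to 1.80, 1.65 to 3.21 and 1.105 to 2.81.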
